A study of Mus musculus with 3 samples.

Results

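The circadian clock genes described here are Clock, Arntl, Per1, Per2, Per3, Cry1, Cry2, Nr1d1, Nr1d2 and Dbp, chosen by gene symbol. All 10 had a row among the 17285 rows of the count table, and none was missing. They were measured by RNA sequencing in B16 cells, a mouse melanoma line, stably carrying an empty vector and labelled Mock. All 3 samples of the series are Mock libraries, numbered 1, 2 and 3, so there was no other group to set them against. The labels give neither a harvest time nor a synchronising treatment, and they name no separate cultures. The p-values therefore speak for these 3 samples alone, and the spread between them may be technical.

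In mammalian cells the circadian clock is a feedback loop of transcription. CLOCK and BMAL1, the product of Arntl, bind together at E-box sequences and switch on the Per and Cry genes, whose proteins gather and shut CLOCK and BMAL1 down. A second loop is made by the REV-ERB nuclear receptors, encoded by Nr1d1 and Nr1d2, which repress Arntl, against the ROR receptors, which activate it. Dbp is a direct target of CLOCK and BMAL1 and carries the rhythm to further genes through D-box sequences.

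The libraries held 9328096, 9456527 and 9438905 counts in replicates 1, 2 and 3, and a single read was worth about 0.106 CPM (counts scaled to library size). All 7 melanocyte markers were above 1 CPM, with a summed level between 23044.3 and 24377.4 CPM. Of 17 leukocyte, fibroblast, endothelial and epithelial markers none was called above 1 CPM. In these 4 lists 4, 3, 3 and 2 markers had no count, and their summed levels reached at most 0.530, 0.424, 0.107 and 1.39 CPM in any library. The largest of these came from Cdh1, whose level was 1.17 ± 0.284 CPM and was unresolved against 1 CPM. Here and below, values with ± are the mean and SD of the 3 libraries.

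The sequences that clock factors are known to bind were looked for in the promoters of these genes, because they link the members to each other. RefSeq promoter windows on GRCm38.p6 matched 9 of the 10 genes by symbol, with 13 windows in all. Per2 matched no window, so its promoter was not searched. The 250 bases before each start were searched on both strands. The E-box CACGTG lay before 2 of the 9 genes, Per1 and Cry1, against 6.86% of 27025 genes with a window. The related CACGTT lay before Cry1, Cry2 and Nr1d1, against 4.5% of genes, and appears as AACGTG where it is read from the other strand. The D-box TTANGTAA lay before Per3, at 2 positions, against 2.44% of genes. The monomeric ROR and REV-ERB element, known as RORE, and the cAMP response element TGACGTCA were in no member's window, against 0.396% and 1.77% of genes. No matches overlapped, and a match is a run of letters, not a measured binding site. The matched stretches are shown 5′ to 3′ on the strand of each gene, with the matched letters in capitals.
Per1, chr11:69098758-69098813, plus strand: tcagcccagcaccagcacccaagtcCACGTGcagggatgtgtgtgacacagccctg
Cry1, chr10:85185084-85185158, minus strand: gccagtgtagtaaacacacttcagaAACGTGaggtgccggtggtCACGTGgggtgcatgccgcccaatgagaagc
Cry2, chr2:92434205-92434260, minus strand: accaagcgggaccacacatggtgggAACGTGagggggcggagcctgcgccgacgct
Nr1d1, chr11:98775378-98775430, minus strand: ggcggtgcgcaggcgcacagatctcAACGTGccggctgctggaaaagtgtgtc
Per3, chr4:151044791-151044895, minus strand: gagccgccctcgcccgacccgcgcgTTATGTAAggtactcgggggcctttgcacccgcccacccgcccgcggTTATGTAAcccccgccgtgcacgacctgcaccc
In Cry1 the AACGTG began 79 bases before the start and the CACGTG 60 bases before it, so both letter runs stand close to the start. In Per1 the CACGTG was in 1 of 2 windows and began 166 bases before a RefSeq start that lies inside the annotated span of the gene, not at its first base.

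All 10 clock genes were transcribed above 1 CPM. Per kilobase of exon, which allows genes to be compared, their levels ran from 11.8 ± 0.175 CPM per kilobase for Nr1d2 to 0.399 ± 0.0487 for Per2. In CPM, Clock reached 104 ± 4.48 and Per2 2.34 ± 0.285. Each gene was above 1 CPM by the quasi-likelihood F test of edgeR, with adjusted p between 4.43e-14 for Clock and 2.99e-04 for Per2, and higher in 3 of 3 libraries. Of the 14408 genes tested, 74.3% were above 1 CPM and 20.2% below, so 10 of 10 is a count on a high background. The median level was 5.36 CPM per kilobase for the 10 members and 4.92 CPM per kilobase for all genes with a count.

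**Figure D1:**
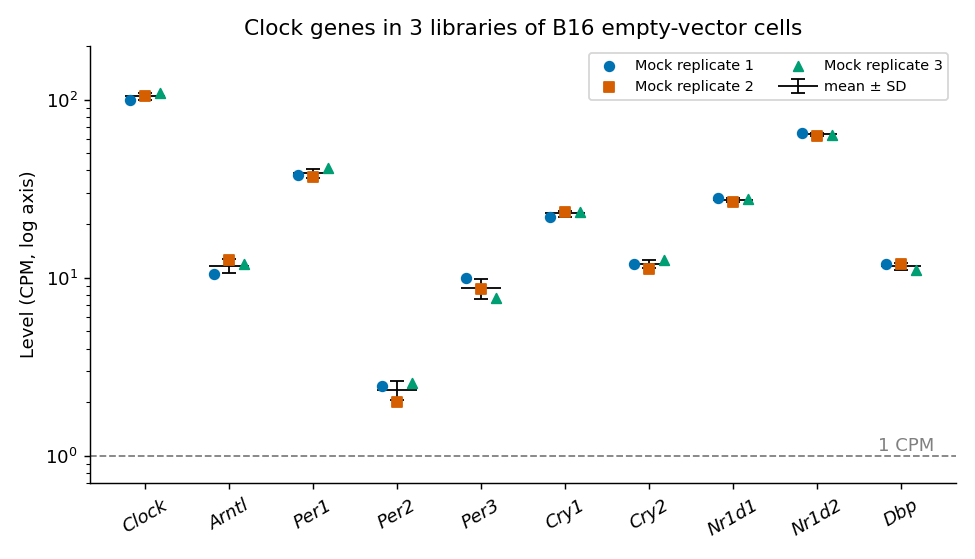
Level of each clock gene in CPM (log axis) in Mock replicates 1, 2 and 3, with the mean and SD as bars and 1 CPM as a dashed line. All 30 points lie above 1 CPM, with Clock at 99.7 to 109 CPM and Per2 at 2.01 to 2.55 CPM.

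The partner genes of the activator differed in level. Clock, whose protein carries a histone acetyltransferase activity, had 933, 989 and 1024 counts, or 99.7, 105 and 109 CPM, in replicates 1, 2 and 3. Arntl, whose protein BMAL1 is the obligate partner of CLOCK, had 98, 118 and 112 counts, or 10.5, 12.5 and 11.9 CPM. Neither gene was called as differing between the libraries (Poisson deviance adjusted p = 0.547 for Clock and 0.753 for Arntl). Clock (chromosome 5, 76209868 to 76304792, minus strand, GRCm38) is annotated with 13727 bases of exon, and Arntl (chromosome 7, 113207465 to 113314126, plus strand) with 7523. Per kilobase, Clock stood at 7.60 ± 0.326 and Arntl at 1.54 ± 0.139 CPM per kilobase, and the values of the 2 genes did not overlap. The within-library log2 ratio of Clock to Arntl per kilobase was 2.30 ± 0.09, a 4.91-fold difference (limma adjusted p = 1.57e-14, higher in 3 of 3 libraries). With the longest annotated transcript as the length the log2 ratio was 1.88.

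The period genes, whose proteins carry the repressor complex into the nucleus, were spread more widely than any other family of members. Per1 had 353, 347 and 388 counts, or 37.7, 36.8 and 41.2 CPM. Per3 had 93, 81 and 72 counts, or 9.94, 8.59 and 7.64 CPM. Per2 had 23, 19 and 24 counts, or 2.46, 2.01 and 2.55 CPM. Replicate 3 was the highest library for Per1 and the lowest for Per3. Per kilobase of exon, Per1 stood at 6.85 ± 0.409, Per3 at 0.907 ± 0.12 and Per2 at 0.399 ± 0.0487 CPM per kilobase, in the same order in each library and without overlap. The log2 ratio per kilobase was 4.07 ± 0.13 for Per1 to Per2, a 16.8-fold difference, 2.92 ± 0.26 for Per1 to Per3 and 1.16 ± 0.27 for Per3 to Per2, and all 3 pairs differed by limma (largest adjusted p = 2.06e-05, for Per3 to Per2). With the longest transcript as the length these log2 ratios were 4.34, 2.51 and 1.83, in the same direction, and Per3 to Per2 was 1.87 in reads without length. Per1 held most of the period transcript, and Per2, a gene whose loss alone shortens and disrupts rhythms in mice, was the least abundant member. Per1 lies on chromosome 11 (69095217 to 69109960, plus strand), Per2 on chromosome 1 (91415982 to 91459324, minus strand) and Per3 on chromosome 4 (151003652 to 151044665, minus strand).

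The cryptochromes, which are the strongest repressors of CLOCK and BMAL1, were also unequal. Cry1 had 205, 221 and 221 counts, or 21.9, 23.4 and 23.4 CPM. Cry2 had 112, 106 and 118 counts, or 11.97, 11.2 and 12.5 CPM. Cry1 is annotated with 3340 bases of exon and Cry2 with 6320. Cry1 stood at 6.86 ± 0.264 and Cry2 at 1.88 ± 0.102 CPM per kilobase, a log2 ratio of 1.86 ± 0.10 (limma adjusted p = 2.81e-11, higher in 3 of 3 libraries). The log2 ratio was 0.94 in reads without length and 1.34 with the longest transcript. Its size thus depends on the length used, while its direction does not. Cry1 lies on chromosome 10 (85131700 to 85185064, minus strand) and Cry2 on chromosome 2 (92403646 to 92434043, minus strand), where 295 bases of its exons are also exon of the RNA gene D930015M05Rik on the other strand.

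The REV-ERB receptor genes led the order per kilobase. Nr1d2, which encodes REV-ERBβ, had 605, 592 and 600 counts, or 64.6, 62.7 and 63.6 CPM. Nr1d1, which encodes REV-ERBα, had 260.94, 250.52 and 261.91 estimated counts, or 27.9, 26.6 and 27.8 CPM. Both genes were steady across the libraries. Per kilobase, Nr1d2 stood at 11.8 ± 0.175 and Nr1d1 at 8.91 ± 0.232 CPM per kilobase, without overlap. The log2 ratio of Nr1d2 to Nr1d1 per kilobase was 0.40 ± 0.02 (limma adjusted p = 1.82e-05, higher in 3 of 3 libraries), against 1.21 in reads without length. Summed per kilobase, the 2 receptor genes reached 21.0, 20.2 and 20.8 CPM per kilobase, against 8.65, 9.30 and 9.49 for Clock and Arntl, 8.15, 7.77 and 8.54 for the 3 period genes and 8.45, 8.79 and 8.998 for the 2 cryptochromes. The receptor sum was the highest in each library. Nr1d2 lies on chromosome 14 (18204054 to 18239127, minus strand).

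Dbp, a PAR bZIP activator of D-box genes, had 111.38, 112.25 and 104.06 estimated counts, or 11.9, 11.9 and 11.03 CPM. These values are the same within 1 CPM in the 3 libraries. Per kilobase it stood at 3.87 ± 0.161 CPM per kilobase, below Nr1d1, another direct target of CLOCK and BMAL1. The log2 ratio of Nr1d1 to Dbp per kilobase was 1.20 ± 0.08 (limma adjusted p = 3.27e-09, higher in 3 of 3 libraries), and 0.67 with the longest transcript.

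The counts of Nr1d1 and Dbp were the only 2 of the 10 with decimals, and both genes share exon sequence with a protein coding gene on the opposite strand that has its own row. Nr1d1 (chromosome 11, 98767932 to 98775333, minus strand) shares 263 of its 3077 exon bases with Thra, the thyroid hormone receptor alpha gene, which had 285.06, 303.48 and 250.09 counts. Dbp (chromosome 7, 45705088 to 45710203, plus strand) shares 539 of its 2993 exon bases with Sphk2, a sphingosine kinase gene, which had 368.62, 350.75 and 332.94 counts. The decimals of each pair cancelled: Nr1d1 and Thra summed to 546, 554 and 512 counts, and Dbp and Sphk2 to 480, 463 and 437 counts, all whole within 0.005. That is what a division of shared reads between the partners gives, and how many of those counted for Nr1d1 or Dbp came from the other strand cannot be told apart. The levels of both genes are uncertain to that extent. Arntl and Cry2 share 33 and 295 exon bases with opposite-strand RNA genes that have no row here. The counts of Arntl and Cry2 were whole. With no row for the other gene, this cannot show whether they include reads from the other strand.

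**Figure D2:**
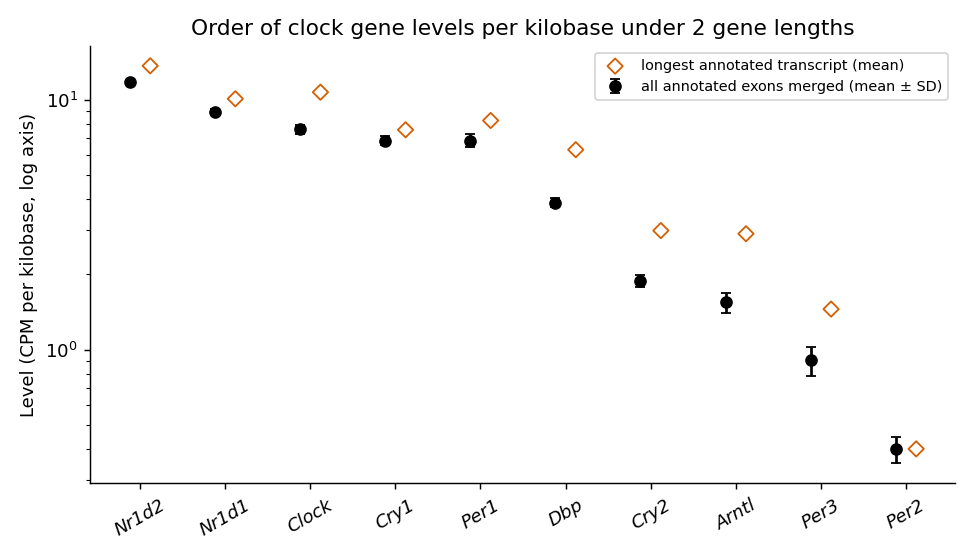
Level per kilobase (log axis) of the 10 clock genes, ordered by the mean over all annotated exons merged (filled points, mean ± SD, n = 3), beside the mean per kilobase of the longest annotated transcript (open diamonds). Nr1d2 is highest and Per2 lowest under both lengths, and Clock stands above Nr1d1 only with the longest transcript.

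Per kilobase of exon the order was Nr1d2, Nr1d1, Clock, Cry1, Per1, Dbp, Cry2, Arntl, Per3 and Per2. Of the 45 pairs of members, 42 differed by limma on within-library ratios. That share is close to the background, since of all other genes 96.7% differed from Nr1d2, 96.4% from Nr1d1, 95.9% from Clock, 96% from Cry1, 95.2% from Per1, 95.2% from Dbp, 96.3% from Cry2, 95.6% from Arntl, 96% from Per3 and 95.9% from Per2. The 3 pairs without a call were neighbours or near neighbours in the order. Cry1 and Per1 had a log2 ratio of 0.01 ± 0.09 (adjusted p = 0.943), Clock and Per1 of 0.15 ± 0.06 (adjusted p = 0.0584) and Cry2 and Arntl of 0.29 ± 0.18 (adjusted p = 0.0689). Clock and Cry1, the closest pair with a call, had a log2 ratio of 0.15 ± 0.03 (adjusted p = 0.0348). The position of Clock depended on the gene model: the log2 ratio of Nr1d1 to Clock was 0.23 over merged exons and -0.09 with the longest transcript. Cry1 and Per1, a pair without a call, also changed places. The log2 ratio of Cry1 to Per1 was -0.12 with the longest transcript. Among all genes with a length the members ran from percentile 24.3 for Per2 to percentile 69.4 for Nr1d2 per kilobase.

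**Figure D3:**
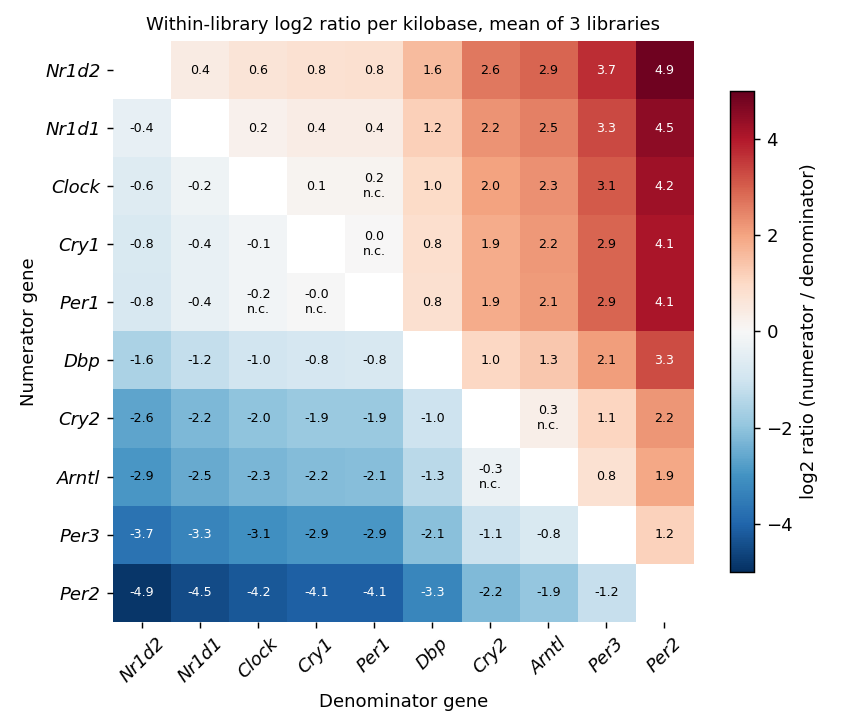
Mean within-library log2 ratio per kilobase of each row gene to each column gene, in the order of their levels, with red for a higher and blue for a lower row gene. Pairs marked n.c. had no call by limma, and the largest ratio is 4.86 for Nr1d2 to Per2.

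No difference in clock gene levels between the 3 libraries was called. None of the 10 members varied between libraries beyond counting error by a Poisson deviance test at an adjusted p under 0.05. Of the 11000 genes whose mean count was 10 or more, 3.31% did, so 0 of 10 is near that share. At an unadjusted p under 0.05 it was 0 of 10 members, against 1642 of the 11000 genes. The lowest p was that of Clock (unadjusted 0.164, adjusted 0.547). The coefficient of variation ran from 1.48% for Nr1d2 to 13.3% for Per3. It exceeded the counting error of the same mean count in 3 of 10 members, namely Clock (4.29% against 3.19%), Per1 (5.97% against 5.25%) and Per3 (13.3% against 11.04%), and in 50.8% of all genes tested. The median range between the highest and lowest library was 0.14 on the log2 scale for the members and 0.14 for all genes. For Per2, with 66 counts in all, counting error alone is 21.3%, so a moderate difference between libraries was not detectable at this depth. For Per3, Arntl, Dbp and Cry2 it is 11.04%, 9.56%, 9.58% and 9.45%, so small differences in these genes could also be missed.

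**Figure D4:**
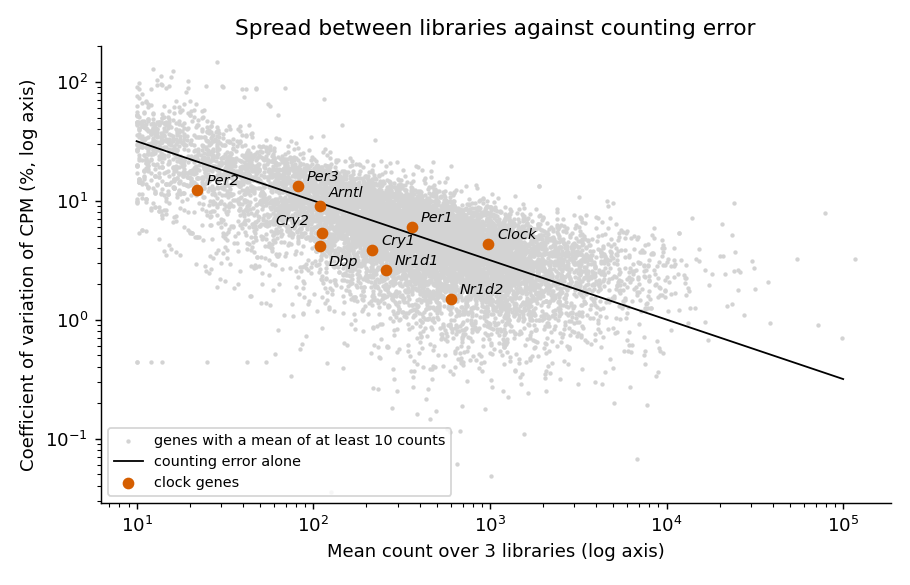
Coefficient of variation of CPM over the 3 libraries against the mean count of each gene (both log axes), for all genes whose mean count was 10 or more (grey) and the clock genes (orange), with the line of counting error alone. The clock genes lie on both sides of the line, within the cloud of all genes, from 1.48% for Nr1d2 to 13.3% for Per3.

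Other genes of the clock were read from a list of 29, of which 28 had a row and Fbxl21 was not analysed here. Of the 28, 24 were above 1 CPM, 3 were below and 1 had no count, against 74.3% and 20.2% of all genes above and below. The median of those with a count was 11.5 CPM per kilobase. The paralogs of the activators were at or near the counting limit. Npas2, which can stand in for Clock in the forebrain, had no count, which allows up to 0.106 CPM over the group. Arntl2, the paralog of Arntl, had 3, 2 and 1 counts, or 0.213 ± 0.107 CPM (edgeR adjusted p = 0.00216, below 1 CPM in 3 of 3 libraries). Clock and Arntl were therefore the only activator genes of this family above 1 CPM.

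Of the ROR receptor genes on the list, Rora stood at 13.4 ± 0.458 CPM and was above 1 CPM. Per kilobase this was 1.02 CPM per kilobase. Rorb had 4 counts in each library and was below 1 CPM (edgeR adjusted p = 0.00988). The 2 REV-ERB receptor genes described above, the repressors that compete with them, stood at 11.8 and 8.91 CPM per kilobase. Of the inhibitors of CLOCK and BMAL1, Bhlhe40 (DEC1) stood at 131 ± 7.03 CPM and Cipc at 84.3 ± 8.03 CPM, while Ciart had 8 counts in all and was below 1 CPM (edgeR adjusted p = 0.00533). Ciart was named after its values were seen, as a gene called below.

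All 3 further D-box factors were above 1 CPM, with the activator Tef at 69.6 ± 4.99 CPM and the repressor Nfil3 at 26.6 ± 3.75 CPM. All 5 kinase genes were above, led per kilobase by the casein kinase genes Csnk1a1 at 374 ± 6.11 CPM and Csnk1d, whose product phosphorylates PER proteins, at 156 ± 4.23 CPM. Both ubiquitin ligase genes on the list, whose products mark PER proteins for degradation, were above, with Fbxw11 at 118 ± 2.65 CPM and Btrc at 52.9 ± 1.42 CPM. All 5 genes for partners of clock proteins were above, led by Rack1 at 1078.9 ± 35.0 CPM and Nono at 453 ± 13.9 CPM. So were all 5 genes for chromatin and NAD factors. Per kilobase these were led by Nampt, at 255 ± 15.2 CPM, and the acetyltransferase gene Crebbp, at 159 ± 2.72 CPM. Ep300 was close to Crebbp per kilobase of merged exon (11.6 against 11.8) and higher with the longest transcript (17.4 against 14.7). Most of these kinases, ligases and partners also act outside the clock.

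**Figure D5:**
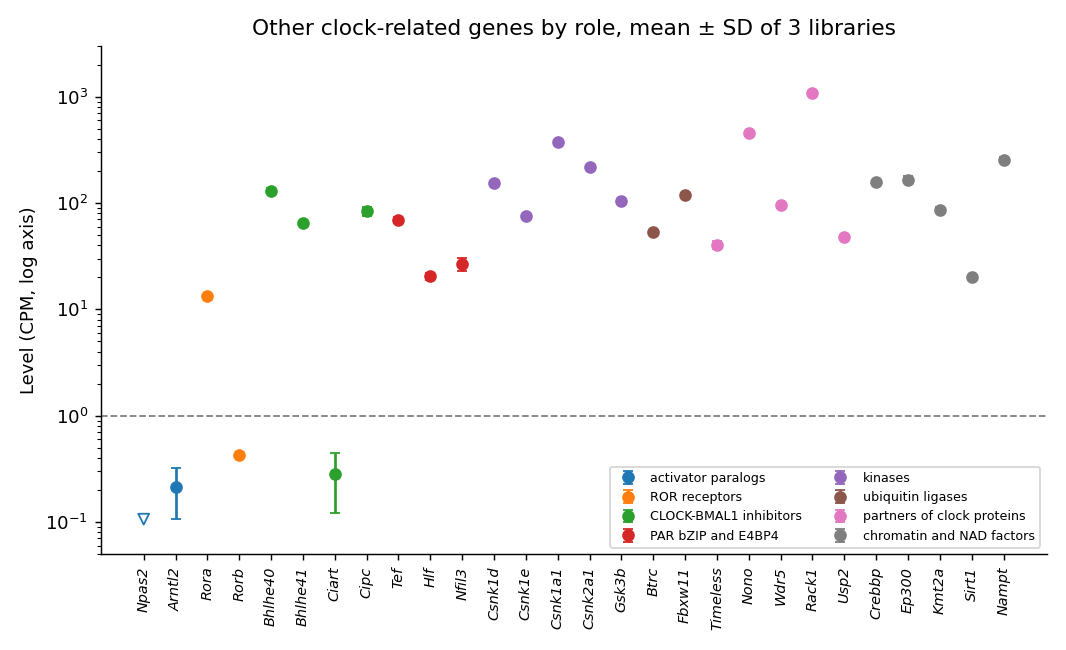
Level in CPM (log axis, mean ± SD, n = 3) of 28 other clock-related genes, coloured by role, with 1 CPM as a dashed line and an open triangle at 0.106 CPM for Npas2, which had no count. The 24 genes above the line run from 13.4 CPM for Rora to 1078.9 CPM for Rack1.

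Between the 3 libraries, 4 of the 24 other clock genes with enough counts varied beyond counting error, against 3.31% of all genes. These shares are not matched for depth, and the test finds smaller differences in genes with more counts. Among genes with a count, the median level was 84.3 CPM for the other clock genes and 23.6 CPM for all genes. Whether the other clock genes vary more than genes of like depth was not tested. Cipc had 865, 793 and 720 counts (adjusted p = 0.0279). Ep300, an acetyltransferase gene named after its values were seen, had 1678, 1555 and 1459 (adjusted p = 0.0103). Nampt, which makes a precursor of NAD, had 2289, 2567 and 2329 (adjusted p = 0.0109), and Rack1 9889, 10010 and 10553 (adjusted p = 0.00189). No library was highest for all 4 genes. Their ranges on the log2 scale, between 0.08 and 0.28, lay within the 0.04 to 0.38 of the members. The widest member ranges, 0.38 for Per3 and 0.34 for Per2, belonged to genes with few counts. Counting error was 11.04% for Per3 and 21.3% for Per2, against 0.993% for Rack1 and 3.55% for Cipc. The ranges of genes at such unlike depths are therefore not a like comparison.

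Per1 and, in some tissues, Per2 also respond directly to serum, cAMP and glucocorticoids, so genes with the same inducers were read beside them. Of 6 immediate early genes 4 were above 1 CPM, against 74.3% of all genes tested. They were Nr4a1 at 148 ± 1.96, Ier2 at 56.4 ± 1.51, Junb at 29.3 ± 2.11 and Fos at 6.73 ± 0.654 CPM. Egr1 was unresolved at 0.814 ± 0.427 CPM, and Fosb was below at 0.389 ± 0.161 CPM. The 4 glucocorticoid target genes were all above 1 CPM, against the same 74.3%, with Sgk1 at 6.27 ± 0.568 and Fkbp5 at 32.5 ± 2.59 CPM. Whether these inputs bear on the level of Per1 was not tested.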

How the data were processed

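RNA was sequenced from 3 Mock samples of B16 cells. Per the labels' protocols, RNA was purified on NucleoSpin columns and BGI made the libraries. GRCm38.p6 is the genome build named, per the submitters' processing notes. For the aligner, counter, annotation and use of strand, nothing is given in the sources used here. Estimated counts stand in the table the authors deposited, with rows named by gene symbol, not normalized or pooled, and with decimals in 2270 of 17285 rows. Counts were rounded to whole numbers, which left 14408 genes with a count.

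CPM values were scaled by TMM factors. With edgeR 4.0.16 (R 4.3.3), an intercept-only quasi-likelihood model gave the F test of each level against 1 CPM. Ratios between genes used counts plus 0.5 per kilobase of merged GENCODE M21 exon (16838 symbols with 1 gene) and limma 3.58.1 with a mean-variance trend, with 1 fit for each member as denominator. The larger adjusted p of both directions is given. Variances in edgeR and limma were moderated over all genes. The ratio p-values take the exon length as fixed, so they leave out error in that length. Variation was tested against counting error by Poisson deviance (2 degrees of freedom). All p-values are two-sided where a direction exists and Benjamini-Hochberg adjusted over all genes tested, with calls under 0.05. The tests were checked on simulated counts. Plots used matplotlib 3.10.9. Counting limits leave out other errors, as reads without molecular identifiers may be copies of 1 molecule.

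The members and lists were chosen with earlier results of these data known. Beyond the members, genes were named by a rule: in each role group those with no count and the 2 highest per kilobase. Likeness of pattern to other genes was not measured, since 3 samples of 1 group carry no pattern over conditions. Some genes of the clock are not reported here.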

Additional observations from a re-analysis of the deposited data

How the results depend on the processing

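All 10 members stayed above 1 CPM with DESeq2 size factors, library totals, a minimum of 10 counts, no filter, DESeq2's Wald test and each replicate left out, and 10 were above 0.5 CPM. Against 2 CPM 9 were, since Per2 then had no call (edgeR adjusted p = 0.249, range over the alternatives 6.74e-06 to 0.249). The other clock genes above stayed at 24 throughout. Those below numbered 3, but 4 without a filter, which tests genes with no count too, 2 by DESeq2's Wald test, where Rorb lost its call (adjusted p = 0.0877), 1 with a minimum of 10 counts, where fewer genes are tested, and 0 against 0.5 CPM (edgeR adjusted p = 0.0552 for Arntl2, 0.157 for Ciart and 0.575 for Rorb, each the upper end of its range over the alternatives, with lower ends of 1.23e-04, 2.34e-04 and 1.98e-04). Leaving out each replicate gave 10 members above, 24 other genes above, 3 below, 41 to 42 pairs and 0 varying members. Differing pairs numbered 42 to 43 under the other alternatives. The order of 1 called pair, Nr1d1 and Clock, turned with the longest transcript. Without length 5 turned: Nr1d1 with Clock and Per1, Nr1d2 with Clock, and Dbp with Arntl and Cry2. The log2 ratios of Dbp to Arntl and to Cry2 were then -8.5e-04 and -0.04, which are near equal levels. Without length 40 of the 42 pairs kept their call. No member varied between libraries under any scaling or count minimum tried. No paired analysis was possible because the samples form a single group. Depth limits genes with few counts, among them Per2, Arntl2, Rorb and Ciart.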
